A study of Mus musculus with 12 samples.

Results

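The oxidative phosphorylation subunit genes described here are the nuclear genes that code for the respiratory chain and the ATP synthase. They were chosen by name alone. A gene entered if its annotated symbol began with Ndufa, Ndufb, Ndufc, Ndufs, Ndufv, Sdh, Uqcr, Cox4 to Cox8 or Atp5, or was Cyc1. Complex I assembly factors (Ndufaf) and pseudogenes were left out. The rule found 87 of the 18194 genes with a probe set of a single symbol, and 86 of them passed the filter on dim probe sets and were tested among 12672 genes. By complex, 34 belonged to complex I, 4 to complex II, 9 to complex III, 18 to complex IV and 17 to complex V. The rule also took in 5 genes that are not subunits, the succinate dehydrogenase assembly factors Sdhaf1 to Sdhaf4 and Cox7a2l, which joins respiratory complexes into larger assemblies.

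Complexes I and II pass electrons from NADH and succinate to ubiquinone, complex III passes them on to cytochrome c, and complex IV passes them to oxygen. Complexes I, III and IV pump protons across the inner mitochondrial membrane as they do so, and complex V uses the proton gradient to make ATP. Each complex holds a core that carries out the chemistry and, except for complex II, many small accessory subunits that build and stabilise it, while a few core subunits of complexes I, III, IV and V are encoded in mitochondrial DNA. Neurons of the cerebellum depend on this pathway for the ATP that ion pumping consumes.

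The data are expression arrays of cerebellar RNA from 12 mice at 6 weeks of age, all on a C57BL/6 background, with 1 array per mouse and 3 mice in each of 4 groups. Homozygous MPI 118Q/118Q knockin mice carried a Sca6 allele with 118 glutamine codons in Cacna1a, the calcium channel gene mutated in spinocerebellar ataxia type 6, in every cell that expresses the gene. Homozygous MPI 11Q/11Q knockin mice carried the allele with 11 glutamine codons. Wild type littermates of each line made up the other 2 groups. Values are log2 levels per probe set, so a difference of 1 is a doubling. Levels of different genes are not compared, since their probes differ.

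Pairs of arrays correlated at 0.980 to 0.995, and array medians lay between 2.21 and 2.38. All 9 listed granule cell markers and all 9 listed Purkinje cell markers with a probe set were above the filter, with mean levels of at least 5.77 and 7.94. The signal of probes for 18S ribosomal RNA was not even between groups. It read 9.23, 8.63 and 8.56 in the 3 arrays of the 118Q knockin but 9.66 to 10.32 in its littermates. In the 11Q line the wild type mean was 10.44 ± 0.17 (SD, n = 3) and the knockin mean 10.24 ± 0.13. The level of 3′ minus 5′ probe sets of Gapdh, a measure of RNA quality, was -0.16 to -0.12 in the 118Q knockin, below its littermates (-0.11 to -0.03) and the 11Q knockin (0.05 to 0.13). For Actb it was 1.04 to 1.15 in the 118Q knockin, 1.13 to 1.31 in its littermates and 1.19 to 1.39 in the 11Q knockin. In the 11Q wild type the values were -0.09 to 0.09 for Gapdh and 1.19 to 1.40 for Actb. The group means of the 18S, Gapdh and Actb measures were each lowest in the 118Q knockin. Its replicates 1, 2 and 3 read -0.16, -0.12 and -0.16 for Gapdh and 1.08, 1.15 and 1.04 for Actb. Every 118Q knockin array lay below all other arrays in 18S signal. A fit with this signal as covariate, used below, therefore cannot tell the signal from the group. The part of the 18S signal and that of the 3′ to 5′ measures in the results below was not tested.

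In the 118Q knockin most subunit genes read above their littermates by a small amount, and none passed the test across all genes. The difference was above 0 for 72 of 86 members (83.7%) against 60% of all genes, and its median was 0.22 log2 units against 0.06 for all genes. limma called 0 members at an adjusted p below 0.05, where it called 0.189% of all genes. At an unadjusted p below 0.05, 39 members (45.3%) were higher and 0 lower, against 12% and 6.7% of all genes. Without 118Q knockin replicate 2 or 3 the count of 39 was 19 each (22.1%, against 9.06% and 7.13% of all genes). Without wild type replicate 1 or 3 of that line it was 24 each (27.9%, against 9.24% and 9.77%). Without knockin replicate 1 it was 47 (54.7%, against 14.2%), and with only these 2 groups in the fit 20 (23.3%, against 10.2%). With the span trend described below removed it was 13 (15.1%, against 6.81% of all genes), and with the 18S covariate 3 (3.49% against 5.7%). All 3 knockin arrays lay above all 3 littermate arrays in 31 members (36.0%, background 15.1%) and below them in 0 (background 7.24%). In whole tissue, a change in the number of cells of a type and a change in RNA per cell cannot be told apart.

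The 3 mice did not contribute alike. The members' median deviation from the mean of the 12 arrays was 0.07 in 118Q knockin replicate 1, 0.25 in replicate 2 and 0.23 in replicate 3, while the littermates' arrays stood at -0.09, 0.04 and -0.03. Over all genes the same 3 knockin arrays stood at 0.05 each. Replicate 1 thus lay close to its highest littermate, and the other 2 stood apart. Without replicate 1, 16 members passed the test, among them Ndufa6, Ndufb9, Uqcr10, Cox6c and Atp5k, and leaving out any other single array gave 0. That is 18.6% of the members, where the same fit called 5.58% of all genes. With array weights, 38 members were called (44.2%, against 15.3% of all genes). With an intensity trend in the variance, Ndufa6 and Ndufb9 were called, 2.33% of the members against 1.58% of all genes. The plot of the median of each complex in each array shows this order for complexes III, IV and V.

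**Figure D1:**
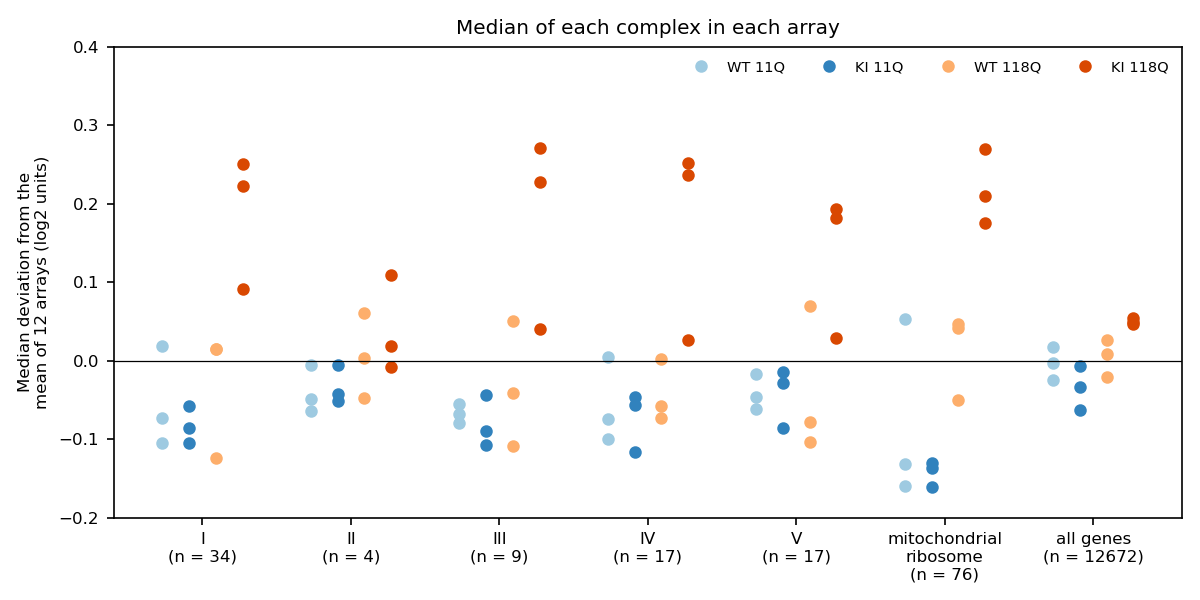
Median deviation of the subunit genes of each complex, of mitochondrial ribosomal protein genes and of all genes tested from their mean over the 12 arrays (vertical axis, log2 units), with 1 point per array coloured by group. In complexes I, III, IV and V, 118Q knockin replicates 2 and 3 stand above every other array, while replicate 1 lies nearer to the wild type arrays. The points of complex II, with 4 genes, lie close together.

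Complex I takes electrons from NADH in a matrix arm and pumps protons in a membrane arm. Of its 34 genes, 31 were above 0 in the 118Q effect, with a median of 0.22. At an unadjusted p below 0.05, 15 were higher (44.1%, background 12%). Ndufa6 (chromosome 15), an accessory subunit of the matrix arm, had the smallest p of all members. It read 8.59, 8.73 and 8.68 in the 118Q knockin and 8.16, 8.28 and 8.25 in the littermates. It read 8.18 to 8.36 in all 6 mice of the 11Q line, so the 3 knockin arrays of the 118Q line stood above the other 9. The difference was 0.44 ± 0.09 (SE), 1.35-fold, with an adjusted p of 0.061 in limma.

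Among other matrix arm subunits, the accessory subunit Ndufa7 differed by 0.42 ± 0.12 (adjusted p = 0.107) and Ndufs4, needed for a stable complex, by 0.36 ± 0.12 (adjusted p = 0.151). Dimmer probe sets of Ndufs4 gave 0.06 ± 0.13 and -0.03 ± 0.19. Ndufv2, a core subunit with an iron-sulphur cluster, read 9.29, 9.28 and 9.32 in the 118Q knockin, against 8.94 to 9.09 in its littermates, a difference of 0.26 ± 0.09 (adjusted p = 0.147). Its other probe sets gave 0.12 ± 0.11 and 0.02 ± 0.15. Ndufa9 was the lowest of the arm at -0.10 ± 0.11, with overlapping groups. In all, 12 of 14 matrix arm genes were above 0, with a median of 0.20.

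The membrane arm gave 18 of 19 genes above 0, with a median of 0.23. At an unadjusted p below 0.05, 10 were higher (52.6%, background 12%). Ndufb9 (chromosome 15), an accessory subunit of this arm, read 9.46, 9.64 and 9.58 in the 118Q knockin. Its littermates read 9.08, 9.30 and 9.04, and the 6 mice of the 11Q line 9.16 to 9.30. The groups did not overlap, and the difference was 0.42 ± 0.10 (adjusted p = 0.069). The accessory subunits Ndufb4, Ndufb1 and Ndufa3 differed by 0.53 ± 0.14, 0.41 ± 0.11 and 0.36 ± 0.11, with adjusted p of 0.088, 0.101 and 0.123. Ndufb4 was dim, at 1.56 to 2.41 over the 12 arrays, close to the filter at 1.58. The lowest member of the arm was Ndufa10, at -0.03 ± 0.09.

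Within complex I the median difference of the core genes was smaller than that of the accessory genes, as a description with no test. This order did not hold in every mouse. In 118Q knockin replicates 1, 2 and 3 the median deviation of core genes was 0.21, -0.02 and 0.13. That of accessory genes was 0.09, 0.27 and 0.24. The 6 core genes had a median of 0.09, with 1 higher at an unadjusted p below 0.05 (16.7%), near the 12% of all genes. The 28 accessory genes had a median of 0.23, with 14 higher (50%). The core gene higher at that p was Ndufv2. Ndufs1, the largest core subunit of the matrix arm, read 7.54, 7.31 and 7.50 in the 118Q knockin, against 7.46 to 7.60 in its littermates.

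**Figure D2:**
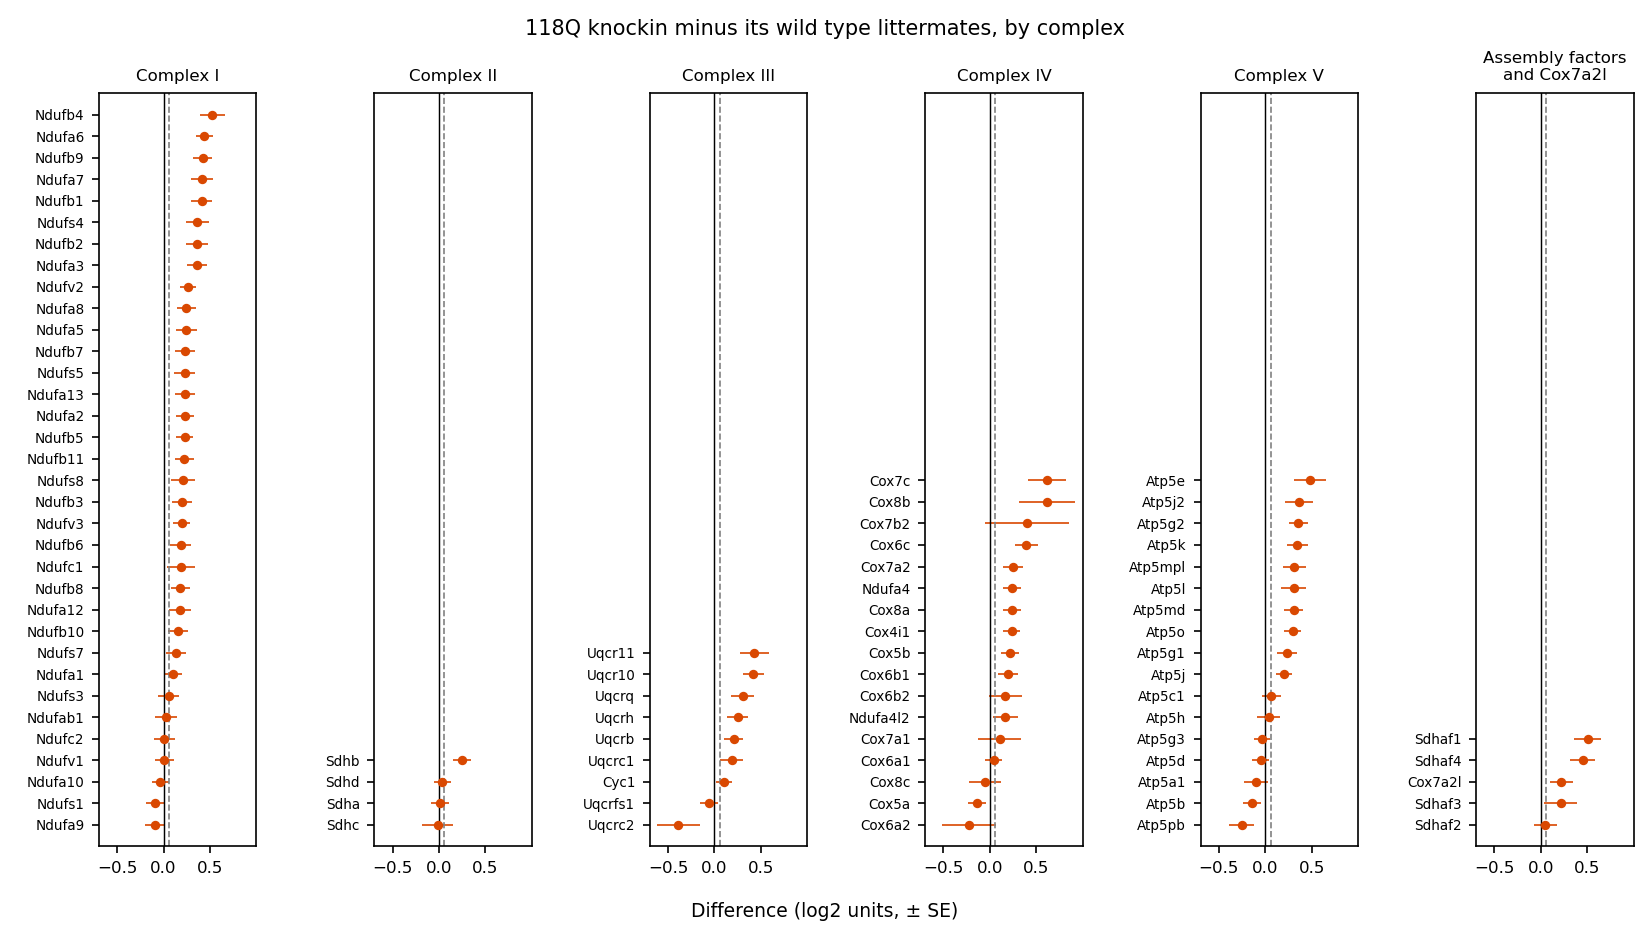
Difference between the 118Q knockin and its wild type littermates for each of the 86 genes tested (horizontal axis, log2 units, with its standard error), ordered within each complex. The solid line marks 0 and the dashed line the median of all genes, 0.06. Most points lie right of both lines, and the lowest of all is Uqcrc2 of complex III at -0.39.

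Complex II is the succinate dehydrogenase, an enzyme of both the respiratory chain and the tricarboxylic acid cycle, and is encoded wholly in the nucleus. Its 4 genes did not share 1 direction. Sdhb, the iron-sulphur subunit, read 8.61, 8.72 and 8.75 in the 118Q knockin, against 8.37 to 8.56 in its littermates, a difference of 0.25 ± 0.10 (adjusted p = 0.197). Sdha, the flavoprotein that oxidises succinate, read 8.57, 8.33 and 8.31 against 8.34 to 8.44, a difference of 0.01 ± 0.10. The membrane anchors Sdhc and Sdhd differed by -0.01 ± 0.17 and 0.04 ± 0.09. The median of the complex was 0.02, and it turned to -0.06 when the probe sets of each gene were averaged.

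Complex III gave 7 of 9 genes above 0, with a median of 0.21. Uqcr10 (chromosome 11), a small accessory subunit, read 8.29, 8.61 and 8.48 in the 118Q knockin and 8.11, 8.13 and 7.88 in the littermates. The groups did not overlap, and the difference was 0.42 ± 0.11 (adjusted p = 0.090), while its dimmer probe sets gave 0.08 ± 0.18 and 0.29 ± 0.13. The other small subunits Uqcr11, Uqcrq and Uqcrh differed by 0.43 ± 0.15, 0.30 ± 0.13 and 0.25 ± 0.11, with adjusted p of 0.168, 0.219 and 0.265. In each of these 3 genes, knockin replicate 1 lay within the range of the littermates and the other 2 replicates above it.

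The remaining subunits of complex III included both directions. Uqcrb differed by 0.21 ± 0.11 and the core protein Uqcrc1 by 0.18 ± 0.12. Uqcrfs1, the Rieske iron-sulphur protein, differed by -0.06 ± 0.10, and Cyc1, cytochrome c1, by 0.10 ± 0.09. Uqcrc2, the other core protein, was the lowest of all members. It read 8.57, 7.86 and 8.21 in the 118Q knockin and 8.20, 8.59 and 9.01 in the littermates, a difference of -0.39 ± 0.23 (adjusted p = 0.384). Its wild type arrays of the 11Q line also spread widely, from 8.35 to 9.03, and its second probe set gave -0.09 ± 0.11.

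In complex IV, the cytochrome c oxidase, the small subunits that surround the catalytic core occur as general isoforms and as isoforms limited to certain tissues. Of 10 general isoforms, 9 were above 0, with a median of 0.24 and 7 higher at an unadjusted p below 0.05 (70%, background 12%). Over all 17 tested genes of the complex the median was 0.22, and with the 18S covariate it turned to -0.00472, with 8 above 0. Cox6c (chromosome 15) read 10.04, 10.53 and 10.44 in the 118Q knockin and 9.93, 10.06 and 9.84 in the littermates. Replicates 2 and 3 were high and replicate 1 lay within the littermates' range, and the difference was 0.39 ± 0.12 (adjusted p = 0.136). The second probe set of Cox6c gave only 0.04 ± 0.15. Ndufa4, first assigned to complex I and later found in complex IV, read 10.18, 10.42 and 10.31 against 10.04 to 10.09, a difference of 0.24 ± 0.09 (adjusted p = 0.194).

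Cox4i1, a regulatory subunit, differed by 0.23 ± 0.09 (adjusted p = 0.205), Cox8a by 0.24 ± 0.10 and Cox7a2 by 0.25 ± 0.11. Cox7c read 4.32, 5.16 and 4.90 against at most 4.27 in the littermates, the largest difference of all members at 0.62 ± 0.20 (adjusted p = 0.147), although its knockin replicate 1 stood close to the highest littermate. Its probe set was dim for a general isoform, with a mean of 4.33 over the 12 arrays, and a dimmer second probe set gave 0.27 ± 0.19. Cox6a1 differed by 0.04 ± 0.09, and by 0.24 ± 0.10 on its second bright probe set, while Cox6b1 differed by 0.19 ± 0.11. Cox5a, named with its value known, was the 1 general isoform below 0, at -0.13 ± 0.10, and its other probe sets gave -0.38 ± 0.16 and -0.25 ± 0.15.

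The tissue-limited isoforms were dim and varied. Of 7 tested, 5 were above 0 and none was higher at an unadjusted p below 0.05 (background 12%). Cox7a1 and Cox8b, the forms of heart and muscle, differed by 0.11 ± 0.23 and 0.62 ± 0.31, and Cox6a2, of the same tissues, by -0.22 ± 0.29. Ndufa4l2, an isoform induced in hypoxia, differed by 0.16 ± 0.14. Cox6b2, Cox7b2 and Cox8c, best known from testis, differed by 0.17 ± 0.18, 0.40 ± 0.45 and -0.05 ± 0.17. Cox4i2, the lung isoform, read 1.18 to 1.75 in all 12 arrays and was below the filter. The 3 muscle markers above the filter gave a median difference of 0.43, with array means of 2.87 to 2.92 in the 118Q knockin, against 2.44 to 2.70 in its littermates. The part of muscle RNA in these isoforms was not tested.

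**Figure D3:**
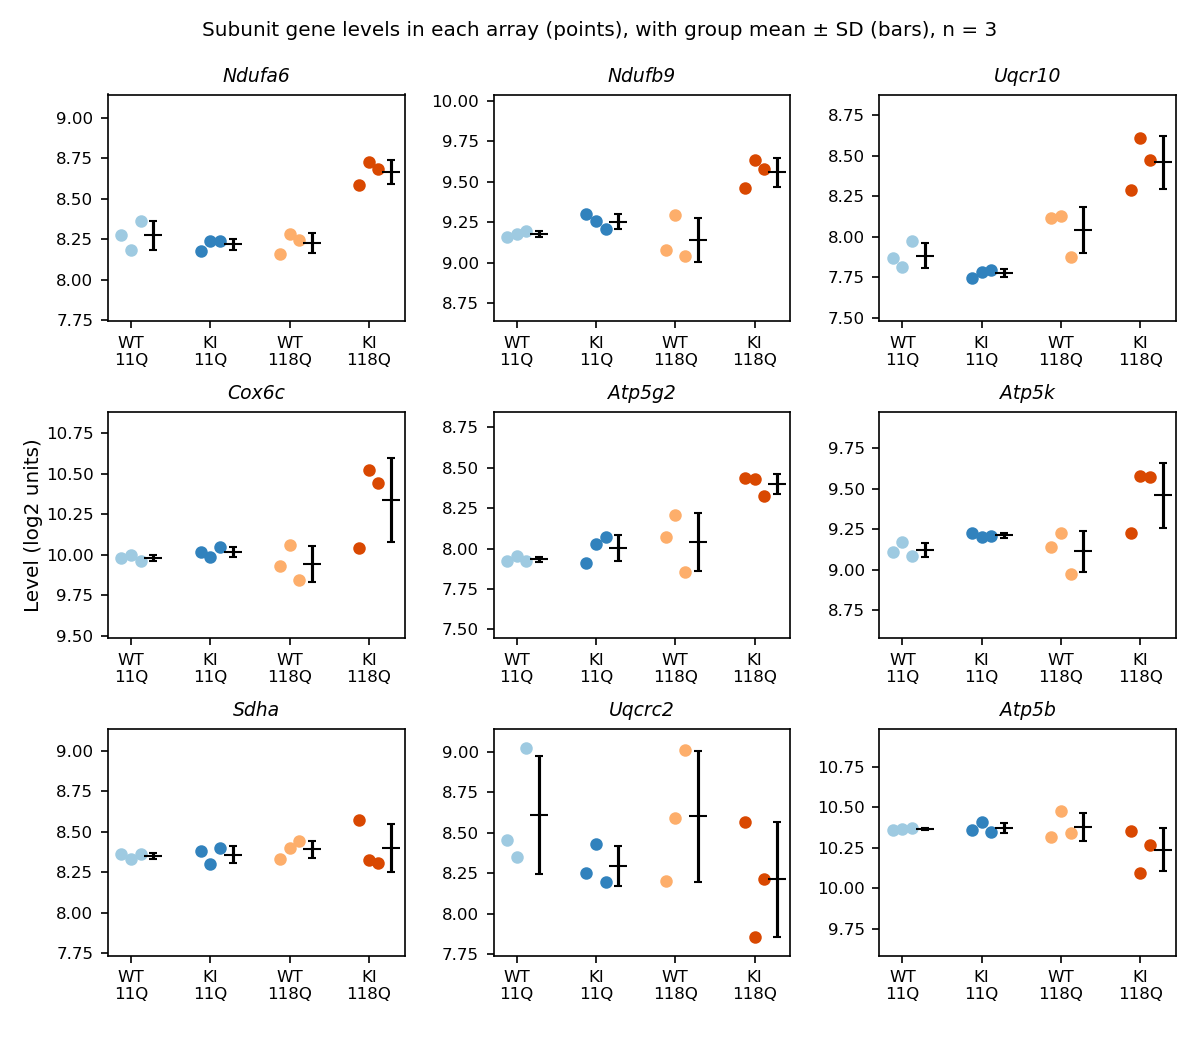
Levels of 9 subunit genes in each array (points, log2 units), with the group mean and standard deviation (bars, n = 3), for wild type (WT) and knockin (KI) mice of both lines. The top and middle rows show genes that read higher in the 118Q knockin, with Cox6c and Atp5k replicate 1 close to the littermates. The bottom row shows Sdha, Uqcrc2 and Atp5b, whose groups overlap.

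Complex V, the ATP synthase, has a catalytic F1 head in the matrix, a ring of c subunits that turns in the membrane, a peripheral stalk and further membrane subunits. These parts differed from each other in the 118Q effect, as a description. The 5 other membrane subunits (Atp5j2, Atp5k, Atp5l, Atp5md and Atp5mpl) help the enzyme to form dimers or hold it in the membrane. All 5 were above 0, between 0.31 and 0.36, and all 5 were higher at an unadjusted p below 0.05 (background 12%). Groups did not overlap in 2 of the 5, Atp5k and Atp5md (background 15.1%). The median deviation of the 5 genes was -0.04 in knockin replicate 1, within the littermates' range of -0.20 to 0.06. In replicates 2 and 3 it was 0.40 and 0.305. Of the 5 genes of the head, 2 were above 0 and the median was -0.05.

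Atp5k (chromosome 5) read 9.23, 9.58 and 9.57 in the 118Q knockin and 9.14, 9.23 and 8.98 in its littermates. Replicate 1 stood just above the highest littermate, and the difference was 0.35 ± 0.11 (adjusted p = 0.145). Its other probe sets gave 0.22 ± 0.12 and 0.34 ± 0.12. Atp5md differed by 0.31 ± 0.10 (adjusted p = 0.151). In the peripheral stalk, Atp5o, the subunit that confers sensitivity to oligomycin, differed by 0.29 ± 0.09 (adjusted p = 0.135), while Atp5pb, the main stalk subunit, gave -0.25 ± 0.13 (adjusted p = 0.333) and 0.01 ± 0.10 on its other probe set.

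The catalytic subunit of the head, Atp5b, read 10.35, 10.09 and 10.27 in the 118Q knockin and 10.32, 10.47 and 10.34 in the littermates. The groups overlapped and the difference was -0.14 ± 0.10. Atp5e, the smallest subunit of the head, read 8.47, 9.27 and 9.01 against 8.43, 8.62 and 8.27, a difference of 0.48 ± 0.17 (adjusted p = 0.171) with replicate 1 inside the range of the littermates.

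Atp5g1, Atp5g2 and Atp5g3 code for the same mature c subunit from different chromosomes. Atp5g2 read 8.44, 8.43 and 8.33 in the 118Q knockin and 8.07, 8.21 and 7.85 in its littermates, without overlap, a difference of 0.36 ± 0.11 (adjusted p = 0.117). Atp5g1 read 8.48, 8.43 and 8.39 against 8.18, 8.34 and 8.07, also without overlap, a difference of 0.24 ± 0.11 (adjusted p = 0.266). Atp5g3 read 10.23, 10.09 and 10.09 against 10.12, 10.25 and 10.14, which overlapped, a difference of -0.04 ± 0.09. Whether the 3 genes differed from each other was not tested.

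The promoters of these 3 genes are shown because the genes code for the same protein from different control regions, and those of Atp5k, Ndufa3 and Cox6a1 because they hold motifs of respiratory gene regulators. Sequences are from RefSeq, build GRCm38.p6, and run from upstream of the annotated start through the first 30 bases of the gene, 5′ to 3′ on the gene's strand. Capitals mark matches, on either strand, to motifs of NRF1, GABPA, YY1 and ESRRA, which are known regulators of mitochondrial genes.
Atp5g1 (chr11:96075602-96075806, minus strand): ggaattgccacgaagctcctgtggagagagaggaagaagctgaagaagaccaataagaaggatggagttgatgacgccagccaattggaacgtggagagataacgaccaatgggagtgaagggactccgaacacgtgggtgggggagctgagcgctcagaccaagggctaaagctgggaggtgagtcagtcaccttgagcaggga
Atp5g2 (chr15:102671018-102671222, minus strand): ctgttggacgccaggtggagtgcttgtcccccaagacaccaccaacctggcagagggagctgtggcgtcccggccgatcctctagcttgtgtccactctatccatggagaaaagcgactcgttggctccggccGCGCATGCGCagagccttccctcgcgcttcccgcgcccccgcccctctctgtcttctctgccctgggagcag
Atp5g3 (chr2:73911297-73911501, minus strand): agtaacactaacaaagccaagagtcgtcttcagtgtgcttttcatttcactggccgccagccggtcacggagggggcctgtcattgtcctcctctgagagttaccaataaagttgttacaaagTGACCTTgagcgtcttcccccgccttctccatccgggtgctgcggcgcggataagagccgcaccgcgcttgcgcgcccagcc
Atp5k (chr5:108434370-108434574, minus strand): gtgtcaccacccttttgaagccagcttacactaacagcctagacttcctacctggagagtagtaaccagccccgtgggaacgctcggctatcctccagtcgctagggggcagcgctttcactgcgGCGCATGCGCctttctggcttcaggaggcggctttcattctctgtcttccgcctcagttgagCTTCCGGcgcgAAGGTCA
Ndufa3 (chr7:3617198-3617402, plus strand): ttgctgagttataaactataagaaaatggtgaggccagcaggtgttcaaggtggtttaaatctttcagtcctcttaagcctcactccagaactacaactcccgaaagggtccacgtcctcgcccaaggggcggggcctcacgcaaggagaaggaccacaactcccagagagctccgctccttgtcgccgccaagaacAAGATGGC
Cox6a1 (chr5:115348929-115349133, minus strand): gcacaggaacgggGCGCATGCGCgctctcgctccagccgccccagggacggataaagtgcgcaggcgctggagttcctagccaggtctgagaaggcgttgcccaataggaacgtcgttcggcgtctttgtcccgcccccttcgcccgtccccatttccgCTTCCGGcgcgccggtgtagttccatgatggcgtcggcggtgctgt

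The full NRF1 motif searched is the run of capitals in the Atp5g2 promoter above, which reads the same on both strands. Counted from the annotated start, Atp5g2 held it at -42, Atp5k at -50 and Cox6a1 at -162. Atp5g1 held no match to these 4 motifs in the window shown, and Atp5g3 held the ESRRA motif AAGGTCA on the opposite strand at -52. Ndufa3 held the YY1 motif AAGATGGC just after its start. Cox6a1 and Atp5k both held the NRF1 and GABPA motifs. A match is a description of the letters and not of binding.

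Promoters of 300 bases (250 before the start, 50 after) were listed for 71 of the 87 members, 76 in all, and 32851 for all genes in the table. The GABPA motif CCGGAAG was in 26.3% of member promoters, 8.86% of all promoters and 15.9% of those of genes tested. The full NRF1 motif was in 5.26%, 0.971% and 1.88%, its shorter form GCGCATG, which lies within the full motif, in 15.8%, 3.91% and 6.37%, and YY1 in 11.8%, 2.75% and 4.10%. ESRRA stood at 10.5%, 4.72% and 3.23%. The SP1 motif GGGCGG was in 44.7%, 35.7% and 61.2%, so it was less frequent in member promoters than in those of genes tested. Of the 33 member genes with a promoter that were higher at an unadjusted p below 0.05, 11 held the GABPA motif, against 9 of the other 38. For YY1 the counts were 4 and 5, for the shorter NRF1 motif 8 and 4, and for the full NRF1 motif 2 and 2.

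The genes that met the rule without being subunits were all above 0 in the 118Q effect. Sdhaf1, which helps to insert iron-sulphur clusters into complex II, and Sdhaf4, which helps to assemble it, differed by 0.51 ± 0.15 (adjusted p = 0.110) and 0.45 ± 0.14 (adjusted p = 0.121), with no overlap of groups. Sdhaf1 was chosen for description with its values known.

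In the 11Q knockin, against its own littermates, the members' median was -0.02 against -0.04 for all genes, 31 of 86 were above 0 (36.0%, background 40.7%). limma called 0 members and 0% of all genes. At an unadjusted p below 0.05, 0 members were higher (background 1.1%) and 1 was lower (background 3.13%). Groups did not overlap upward in 4 members (background 3.24%) or downward in 6 (background 7.17%). The member lower at that p was Cox6b2, which read 4.14, 4.19 and 4.29 in the 11Q knockin and 4.48, 4.76 and 4.64 in its littermates, a difference of -0.42 ± 0.18 (adjusted p = 0.939). The difference between the 118Q and 11Q effects had a median of 0.25 over the members and 0.08 over all genes, with 71 of 86 above 0 (background 62.3%). It was called for 0 members and 0% of all genes, and 17 members were higher at an unadjusted p below 0.05, where 8.09% of all genes were, and 0 lower (background 2.9%). The smallest p among members was that of Ndufa6, at 0.49 ± 0.13 (adjusted p = 0.346), and the next that of Uqcr10, at 0.53 ± 0.16 (adjusted p = 0.346).

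Wild type mice of the 2 lines differed little in these genes. The median of 118Q littermates minus 11Q littermates was 0.01 for members and 0.01 for all genes, and 48 of 86 were above 0 (background 52.9%). limma called 0 members and 0% of all genes. At an unadjusted p below 0.05, 0 members were higher (background 1.9%) and 0 lower (background 1.08%), and groups did not overlap upward in 0 (background 4%) and downward in 1 (background 2.44%). The largest differences among members were 0.74 for Cox7b2 and 0.52 for Cox6a2, both dim and variable, and -0.25 for Cox8b, also dim, and Ndufa12, none with a p past either threshold.

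Between the 2 knockin lines, 20 members rose in the 118Q knockin and 0 fell, with adjusted p below 0.05 in limma. That is 23.3% of the 86 tested, where 10.1% of all genes rose and 3.6% fell. At an unadjusted p below 0.05, 48 members were higher and 0 lower (background 22.6% and 8.32%). The comparison shares its 118Q arrays with the effect above and is not independent of it. The members' median was 0.29 against 0.09 for all genes, and 49 of 86 did not overlap upward (57.0%, background 26.5%) and 2 downward (background 11.6%). Cell type markers moved in the same comparison. Of 10 microglial markers 7 rose (median 0.91), of 9 Purkinje cell markers 4 fell (median -0.55) and of 7 endothelial markers 3 fell (median -0.57). The 1 red blood cell marker fell (-1.16), 1 of 7 oligodendrocyte markers rose (median 0.36) and 1 of 9 granule cell markers fell (median -0.16). No choroid plexus marker was called, but all 7 were above 0 (median 1.17), with array means of 3.44 to 5.81 in the 118Q knockin and 2.45 to 5.60 in the 11Q knockin. Of 9 markers of astrocytes and Bergmann glia and 3 of muscle 0 were called (medians 0.23 and 0.41). Their part in the subunit values was not tested.

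By complex the 20 were 8 of complex I, 1 of II, 1 of III, 3 of IV, 4 of V and 3 that are not subunits. The wild type groups differed by -0.08 to 0.24 in the same genes. Of the 20, 15 also had an unadjusted p below 0.05 in limma against their own littermates. Both comparisons use the same knockin arrays, so the choice of genes by the first favours a low p in the second. The matching share among all genes that rose was not computed. The count of 15 is therefore a description and no separate evidence of a rise.

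Uqcr10 rose most clearly. It read 8.29, 8.61 and 8.48 in the 118Q knockin and 7.74, 7.78 and 7.79 in the 11Q knockin, 1.61-fold or 0.69 ± 0.11 log2 units higher (adjusted p = 0.00658). The 118Q littermates lay between these groups, at 7.88 to 8.13. Ndufs5, an accessory subunit of complex I, read 8.54, 8.66 and 8.76 against 8.13, 8.06 and 7.91, a rise of 0.61 ± 0.11 (adjusted p = 0.00878). Its 11Q knockin arrays lay below, and its 118Q knockin arrays above, all of their own littermates.

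In complex I, Ndufa6 rose by 0.45 ± 0.09 (adjusted p = 0.0121), Ndufa3 by 0.41 ± 0.11 (0.0285), Ndufv2 by 0.30 ± 0.09 (0.0410), and Ndufs8, a core iron-sulphur subunit, by 0.44 ± 0.13 (0.0423). Ndufb4, Ndufb11 and Ndufa2 rose by 0.45, 0.34 and 0.32. Sdhb of complex II rose by 0.36 ± 0.10 (adjusted p = 0.0312). In complex IV, Cox7c rose by 0.70, Cox6b2 by 0.67 and Cox5b, a regulatory subunit that binds zinc, by 0.37. Against its own littermates, Cox6b2 differed by 0.17 in the 118Q knockin, with overlapping groups, and by -0.42 in the 11Q knockin. Cox7c was the 1 called member whose groups overlapped. Complex V contributed Atp5md (0.42), Atp5g2 (0.39), Atp5o (0.33) and Atp5e (0.56). Sdhaf4, Sdhaf3 and Cox7a2l rose by 0.68, 0.69 and 0.40.

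The count of 20 depended on single arrays and on the 18S covariate, which cannot be told apart from the 118Q knockin group. The shares of all genes here count calls in either direction, 13.7% in the fit that gave 20. Without 118Q knockin replicate 2 or 3, 4 and 2 members were called (4.65% and 2.33%), near the share of all genes (4.92% and 2.52%). Without replicate 1 the count was 40 (46.5%, against 17.9%). Without 11Q knockin replicate 1, 2 or 3 the counts were 5, 4 and 4 (5.81%, 4.65% and 4.65%), again near the share of all genes (5.69%, 5.62% and 4.79%). Without wild type replicate 1 or 2 of the 11Q line, or replicate 2 of the 118Q line, they were 13 each (15.1%), against 11.6%, 11.5% and 11.5%. With the 18S signal as covariate, 0 members were called in this comparison, and the same fit called 0 of all genes. With a trend over gene span removed from each array, 6 were called (6.98%, against 6.49% of all genes). Uqcr10 (0.455), Ndufs5 (0.41), Sdhaf4 (0.50) and Sdhaf3 (0.71) still rose, and Atp5g3 (-0.34) and Cox5a (-0.34), which were not among the 20, fell. Arrays centred on their median gave 10 calls (11.6%, against 11.5%). Array weights gave 59, of which 2 were lower (68.6%, against 41.9%), an intensity trend 33 (38.4%, against 14.9%) and no filter 13 (14.9% of 87, against 8.33%).

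Gene span, the length of the genome a gene covers, differed between the members and other genes. The members' median was 7.23 kb against 24.0 kb for all genes with a span, and 84.9% of members were under 20 kb against 44.7%. In the 118Q effect shorter genes read higher over the genome. The median was 0.15 over 1561 genes under 5 kb and -0.06 over 3644 genes above 50 kb, and Spearman's rho across genes was -0.35 over 12612 genes. Genes are not independent replicates, and the same arrays enter every point.

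Set beside genes of like span, the members' medians were higher in the ranges under 20 kb. Under 5 kb, 29 members had a median of 0.22, against 0.15 for all genes. From 5 to 10 kb the values were 0.23 for 32 members against 0.15, and from 10 to 20 kb 0.21 for 12 members against 0.11. From 20 to 50 kb, 10 members had a median of -0.00 against 0.05. Of these 10, Ndufv2 (0.26), Ndufa12 (0.18), Atp5c1 (0.06), Sdhaf2 (0.05) and Sdha (0.01) were above 0, and Sdhc, Ndufa10, Ndufs1, Ndufa9 and Uqcrc2 below. Above 50 kb there were only 3 members, Ndufs4, Cox7b2 and Sdhaf3, all above 0, with a median of 0.364 against -0.06 for all genes. With the span trend removed the members' median was 0.08 and 13 members were higher at an unadjusted p below 0.05. With the 18S signal as covariate the median was 0.09 and 3 members were.

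**Figure D4:**
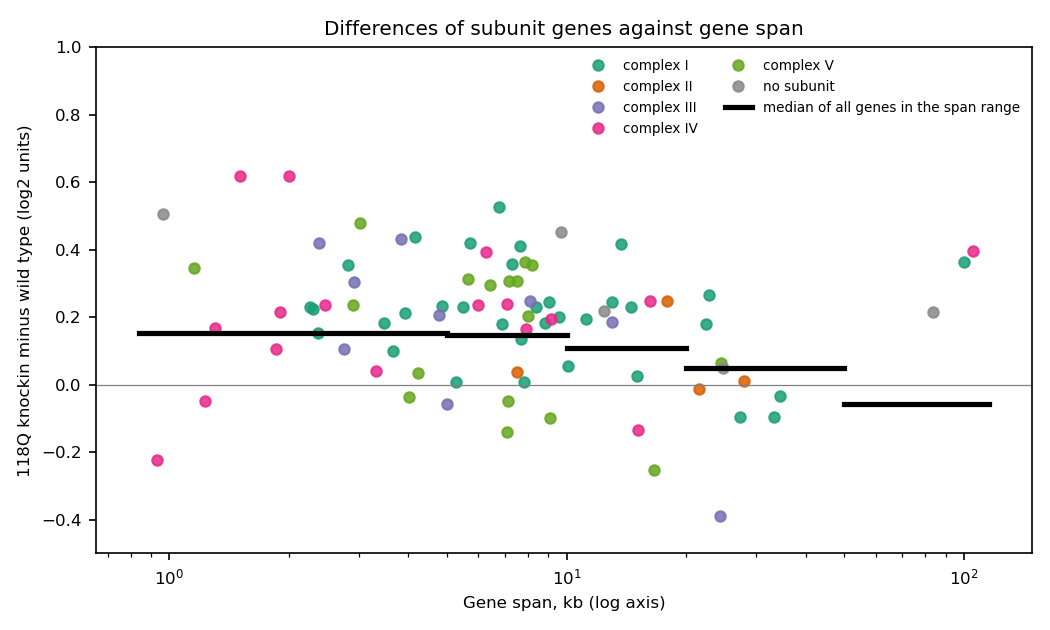
Difference between the 118Q knockin and its littermates (vertical axis, log2 units) against gene span (horizontal log axis, kb) for the 86 genes tested, coloured by complex. The 5 genes that are not subunits are in grey. Black bars show the median of all genes tested in 5 span ranges. Most members under 20 kb lie above the bar of their range.

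The members' span and 118Q effect correlated at a Spearman's rho of -0.21 over 86 genes, and in the 11Q effect at 0.07. Protein synthesis genes moved in the same direction in the 118Q effect. Of 42 cytosolic ribosomal protein genes all were above 0, with a median of 0.32, 31 at an unadjusted p below 0.05 and 1 called. Of 76 mitochondrial ribosomal protein genes 71 were above 0, with a median of 0.20, 25 at that p and 0 called. Among all genes, 12% were higher at that p and 0.189% were called in either direction. The subunit genes, with a median of 0.22, stood between these families. All 3 families were thus higher on balance, and the differences between them were not tested.

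Other genes of the pathway were read from lists of assembly factors, carriers and regulators. In the 118Q effect 0 genes of any of these lists were called, where 0.189% of all genes were. Among complex I assembly factors, 13 of 16 were above 0 (median 0.16). Ecsit and Tmem126b, which act in building its membrane arm, differed by 0.30 ± 0.11 and 0.43 ± 0.19. Among complex III and IV assembly factors, 18 of 23 were above 0 (median 0.16). At an unadjusted p below 0.05, 9 were higher and 1 lower (background 12% and 6.7%). Uqcc2, needed to assemble complex III, read 8.52, 9.16 and 8.88 in the 118Q knockin and 8.26, 8.45 and 8.10 in its littermates, a difference of 0.59 ± 0.15 (adjusted p = 0.0789). Cox19, a copper-dependent factor of complex IV, differed by 0.53 ± 0.13 (adjusted p = 0.0705). Against the 11Q knockin, 7 of 16 complex I assembly factors rose and 0 fell, where 10.1% of all genes rose and 3.6% fell. Of the complex III and IV factors, 8 of 23 rose and 1 fell in that comparison.

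Of 4 assembly factors and inhibitors of complex V, 3 were above 0 (median 0.11), with Atpaf2 at 0.25 ± 0.13 and the inhibitor Atpif1 at 0.21 ± 0.15. Of 18 electron and metabolite carriers 9 were above 0 (median -0.00), with Coq9, of ubiquinone synthesis, at 0.41 ± 0.13 and Etfb at 0.26 ± 0.09. Of 22 genes of the tricarboxylic acid cycle and pyruvate dehydrogenase 11 were above 0 (median -0.01), with Idh2 at 0.46 ± 0.15, Suclg2 at 0.33 ± 0.13 and, lowest, Mdh2 at -0.33 ± 0.15. At an unadjusted p below 0.05, 3 of them were higher and 1 lower (background 12% and 6.7%). Of 19 mitochondrial biogenesis regulators 13 were above 0 (median 0.06), with the mitochondrial DNA polymerase Polg at 0.30 ± 0.12, Tfb2m at 0.26 ± 0.10 and, lowest, the nuclear receptor Esrrg at -0.34 ± 0.15. Of these, 2 were higher and 1 lower at that p. Mdh2 and Esrrg were named with their values known. ND5, the only mitochondrially encoded gene listed, read 10.85, 10.63 and 10.67 in the 118Q knockin against 10.39 to 10.70 in littermates, a difference of 0.20 ± 0.11 (adjusted p = 0.347). It rose by 0.46 against the 11Q knockin (adjusted p = 0.0222).

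Marker levels of cell types also moved in the 118Q effect. Of 9 Purkinje cell markers 8 were below 0 (median -0.65), with array means of 9.13 to 9.70 in the 118Q knockin, against 9.87 to 9.95 in its littermates, and Slc1a6 passed the test (-1.13, adjusted p = 0.0465). All 10 microglial markers were above 0 (median 0.65), with array means of 4.31 to 4.71 against 3.72 to 4.12, and Trem2 passed the test. All 7 endothelial markers were below 0 (median -0.43), and Flt1 passed. Granule cell markers had a median of -0.03, those of astrocytes and Bergmann glia 0.03, oligodendrocyte markers 0.13 and choroid plexus markers -0.10, with 4, 6, 5 and 3 above 0 of 9, 9, 7 and 7. The 1 red blood cell marker above the filter differed by -0.39. No list had a marker at 0, and the lowest mean of a marker was 2.11. The part of these cell types in the subunit values was not tested. Purkinje marker medians stood at -0.03 in knockin replicate 1 and at -0.69 and -0.58 in replicates 2 and 3. In the same order, endothelial marker medians stood at -0.05, -0.53 and -0.51, and microglial ones at 0.89, 0.43 and 0.62. Those of the subunit genes were 0.07, 0.25 and 0.23.

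Of the 87 members, 48 had further probe sets above the filter. Of these 77 probe sets, 66 had the same sign as the one reported in the 118Q effect and 62 were above 0, with a median of 0.18. For no gene did 2 probe sets of opposite sign both pass an unadjusted p below 0.05. Of the reported probe sets, 7 end in x_at and 11 in s_at, which mark probes that can match other genes or several transcripts, among them those of Atp5k, Ndufa3, Atp5e, Cox5b and Cox7c. Respiratory subunit genes have many processed pseudogenes, so these levels are less certain. The members lay on 19 chromosomes, with 2 on the X chromosome and no more than 10 on any other.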

How the data were processed

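Biotin-labelled cerebellar RNA of 12 mice was measured on 12 expression arrays, 3 in each of 4 groups taken from the sample titles. RNA integrity numbers were above 5.0, per the labels' protocols. The deposited values are log2 levels for each probe set; the authors used RMA, per the submitters' processing notes, and its version is not given in the sources. No further scaling was applied, and the number of arrays limits the precision.

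Probe sets were named from the platform annotation: 34958 had 1 symbol, 932 several and 9211 none. Of 45101 probe sets, the dimmest 40% (mean log2 level below 1.58) were dropped and 27060 kept, and the brightest probe set of each symbol gave 12672 genes. Group means over all arrays were fitted with limma 3.58.1 in R 4.3.3 (8 residual and 4.61 prior degrees of freedom), with 5 comparisons, two-sided, and Benjamini-Hochberg adjustment over all genes in each. A gene was called at an adjusted p below 0.05. Errors of differences are standard errors of this model, with a median of 0.139 for the 118Q effect. The step was tested on simulated data. Spans, chromosomes and promoters came from RefSeq, GRCm38.p6, in which all 87 members matched. Correlations of same-numbered wild type and knockin arrays lay between -0.171 and 0.193, so numbers were not taken as pairs.

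Genes named with values were all members called in any comparison; in each arm of complex I and in complexes III, IV and V the 4 with the smallest p and the 1 with the lowest difference in the 118Q effect; complex II; isoform pairs of complex IV; the c ring; the 3 with the smallest p in each other comparison; and up to 2 per pathway list. Values are also given for Atp5b, Atp5c1, Cox5a, Cyc1, Ndufs1, Sdhaf1, Sdhaf2, Uqcrb, Uqcrc1, Uqcrfs1, Mdh2 and Esrrg, which this rule does not name. The members, the lists and the alternatives were chosen with earlier results of these data known.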

Additional observations from a re-analysis of the deposited data

Results flagged for a closer look

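In 4 subunit genes every 118Q knockin array lay above, and every 11Q knockin array below, all littermates of its own line. This pattern was seen in 102 of all genes tested (0.805%), and the reverse in 0 members. The difference between the effects was 0.53 ± 0.16 log2 units for Uqcr10 (0.529; adjusted p = 0.346 in limma) and 0.43 ± 0.16 for Ndufs5 (0.434; adjusted p = 0.379). For Ndufb11 it was 0.35 ± 0.15 (0.348; adjusted p = 0.425) and for Ndufv2 0.32 ± 0.12 (0.321; adjusted p = 0.396). None passed the test of the difference itself.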

How the results depend on the processing

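Of the 51 named genes tested, 1219 values of the 118Q effect were recomputed under alternatives, of which 1137 kept direction and side of the threshold, 45 came to pass it and 37 changed sign. The count of members called in the 118Q effect (0) became 4 at an adjusted p below 0.1 (4.65%, against 3.09% of all genes). It was 38 with array weights (44.2%, against 15.3%), 2 with an intensity trend (2.33%, against 1.58%) and 2 with the lowest 60% removed (2.47%, against 1.52%). Leaving out single arrays gave 0 to 16, and the 16 were 18.6%, against 5.58%. The count in knockin against knockin (20) became 0 with the 18S covariate, where 0 of all genes were called. It became 37 at an adjusted p below 0.1 (43%, against 22.8%). It was 59 with array weights (68.6%, against 41.9%), 10 with centred arrays (11.6%, against 11.5%) and 6 with the span trend removed (6.98%, against 6.49%). An intensity trend gave 33 (38.4%, against 14.9%) and no filter 13 (14.9%, against 8.33%). Leaving out single arrays gave 2 (2.33%, against 2.52%) to 40 (46.5%, against 17.9%). The cause was not tested. Counts in the 11Q effect, in the difference of effects and between wild types stayed at 0 under all alternatives run.

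Medians moved with the 18S covariate, which cannot be told apart from the 118Q knockin group, and with the span trend removed. With these in turn the median over all members became 0.0898 and 0.0835 for the 118Q effect, 0.124 and 0.0919 for the difference of effects, and 0.125 and 0.0894 for knockin against knockin. For the 118Q effect complex I gave 0.139 and 0.0835, complex II 0.117 and -0.0632, complex III 0.0477 and 0.0801, complex IV -0.00472 and 0.0759, and complex V 0.0421 and 0.0929. Complex II gave -0.062 with the mean of probe sets, and complex III 0.296 with array weights. Leaving out single arrays gave 0.171 to 0.274 over all members, -0.0138 to 0.0861 in complex II and 0.198 to 0.307 in complex V.

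Signs of single genes changed mostly with the 18S covariate, which gave Atp5e -0.243, Atp5g3 0.0184, Atp5k -0.0797, Atp5pb 0.138, Cox4i1 -0.00613, Cox6b1 -0.126, Cox6c -0.0683, Cox7a1 -0.400, Cox7a2 -0.0758, Cox7b2 -0.420, Ndufa10 0.029, Ndufa9 0.120, Uqcr11 -0.264, Uqcrc2 0.480, Uqcrh -0.177 and Uqcrq -0.201. The span trend removed gave Cox6a1 -0.101, Cox7a1 -0.0452, Sdha -0.0399 and Sdhd -0.0864. Quantile normalization gave Cox6a1 -0.0144, array weights gave Cox6a2 0.253 and Sdha -0.0567, the mean of probe sets gave Sdha -0.088 and Sdhd -0.0961, and centred arrays gave Sdhc 0.0106. Leaving out single arrays changed the sign of Atp5g3 (-0.0823 to 0.0035), Cox6b2 (-0.00774 to 0.391), Cox7a1 (-0.165 to 0.427), Cox7b2 (-0.115 to 0.838), Cox8c (-0.12 to 0.0802), Ndufa9 (-0.178 to 0.0195), Sdha (-0.075 to 0.0571) and Sdhc (-0.157 to 0.138).

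With the replicate number as a block, 0 members were called in the 118Q effect and 0 in the difference of effects, as without it. That fit called 0.0395% of all genes in the 118Q effect. At an unadjusted p below 0.05, 24 members were higher in it (27.9%, against 10.8% of all genes), in place of 39. Same-numbered arrays did not deviate together, so the numbers were not taken as pairs, and comparisons between lines have no such fit.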
